A study of Homo sapiens with 4 samples.

Results

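MYC and 38 genes of ribosome biogenesis did not differ detectably between estrogen-deprived MM134 cells with wild-type HER2 and those with HER2 L755S. These 39 genes were chosen by symbol from a list of names, out of 60675 genes in the tables, and 38 of them were high enough to be tested. None of the 38 was called higher or lower in HER2 L755S cells (edgeR's quasi-likelihood test, adjusted after Benjamini and Hochberg), where 1.69% of 16538 tested genes were called (0.738% higher and 0.949% lower). None had an unadjusted p under 0.05 either, against 10.5% of all tested genes, and DESeq2 and limma-voom also called none of them. Every log2 fold change of the 38 lay between -0.31 (BOP1) and 0.39 (NOP2).

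MM134 is an estrogen receptor positive cell line from a lobular breast carcinoma. Cells were first grown to 70% confluence in full serum. The HER2 WT line (2 libraries) and the HER2 L755S line (2 libraries) were each kept for 7 days in phenol red free medium with 5% charcoal-stripped serum, so all 4 libraries come from cells deprived of estrogen and no library comes from cells with estrogen. HER2, the product of ERBB2, is a growth factor receptor with tyrosine kinase activity, and L755S is a substitution in its kinase domain. The sources used here do not give how the lines were made, whether each is 1 clone, or whether same-line libraries had cultures of their own. The p-values therefore speak of the scatter among these 4 libraries, and that scatter may be technical.

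A ribosome is built in the nucleolus. RNA polymerase I copies the ribosomal DNA into a long precursor, small nucleolar ribonucleoproteins (snoRNPs) guide its chemical modification, the small subunit processome folds and cuts its first part, and other factors mature the 60S precursor before export. MYC is a transcription factor that binds, with its partner MAX, the E-box sequence CACGTG, and ribosome biogenesis genes are among its best known targets. Poly(A)-selected libraries measure the mRNAs of these factors. They do not measure ribosomal RNA, snoRNA or MYC protein.

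The E-box is shown first because it is the site MYC is known for. The members were listed together with MYC, whose best known targets include ribosome biogenesis genes. How far their choice rested on known MYC targets is not stated, so the shares below are a description only. RefSeq promoter windows (GRCh38.p14, 250 bases before to 50 after a start) were at hand for 31 of the 39 members. CACGTG, which reads the same on both strands, lay in a window of 14 of these 31 genes (45.2%). It lay in a window of 12.5% of 10163 other tested protein-coding genes and of 8.78% of all 27305 genes in the RefSeq table. The related sequence CACGCG, searched on both strands, was found for 25.8% of the members and 22.3% of the other tested protein-coding genes. TATAAA, on both strands, was found for 3.23% and 8.196%. A window can hold more than 1 of these motifs. A match is a description of the letters, and binding of MYC was not measured here. The 8 members whose E-box lay nearest to the start are printed below on the gene's own strand, with the E-box in capitals.
PWP2 (chr21:44107388-44107417, plus strand): tgagctgcggcaCACGTGcgacggccgtga
WDR43 (chr2:28894658-28894687, plus strand): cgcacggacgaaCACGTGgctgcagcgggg
RRP9 (chr3:51941892-51941921, minus strand): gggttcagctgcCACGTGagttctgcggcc
FBL (chr19:39846356-39846385, minus strand): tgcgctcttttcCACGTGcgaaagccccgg
GNL3 (chr3:52686026-52686055, plus strand): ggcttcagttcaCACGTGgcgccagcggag
UTP20 (chr12:101280083-101280112, plus strand): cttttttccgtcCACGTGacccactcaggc
PES1 (chr22:30591880-30591909, minus strand): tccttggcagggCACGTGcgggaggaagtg
NOP14 (chr4:2963374-2963403, minus strand): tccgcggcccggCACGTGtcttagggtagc

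In these 8 genes the first base of the E-box lay between 10 bases before the start (UTP20) and position 16 counted from the start (NOP14). UTP20 is shown with more context because its E-box lies wholly upstream and no annotated exon overlaps the stretch.
UTP20, 100 bases before the start (chr12:101280005-101280104, plus strand): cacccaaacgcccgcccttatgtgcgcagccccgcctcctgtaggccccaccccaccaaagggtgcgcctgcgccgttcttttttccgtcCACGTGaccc

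The 13 tested members with an E-box had a median log2 fold change of 0.11 (HER2 L755S over HER2 WT), and the 17 tested members whose windows held none had a median of 0.18. The number 1 libraries gave medians of 0.24 and 0.25 for these groups, and the number 2 libraries -0.01 and 0.02. These are descriptions, and the difference between the groups was not tested.

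Values below are in CPM, counts scaled to a common library size with edgeR's TMM factors, with the number 1 library of a line before its number 2 library. Within each number, the difference of HER2 L755S over HER2 WT is a difference of log2 CPM. Total expected counts ran from 27423247 to 31088422 per library, and a tested member had at least 339 counts in every library. The luminal markers were all present, with 12 of 12 above 10 TPM in all libraries, and none of 12 leukocyte markers reached 1 TPM in any library (summed level 0.40 to 1.73 TPM). Of the fibroblast and endothelial list only COL1A1 exceeded 1 TPM, and the sum of the list was 14.9 to 37.7 TPM. In bulk RNA, a smaller share of cells that express a gene and less RNA of it per cell cannot be told apart. Libraries with the same number shared features: mitochondrial transcripts took 4.395% and 4.03% of counts in HER2 WT 1 and HER2 L755S 1, against 8.83% and 13.5% in HER2 WT 2 and HER2 L755S 2. Of 11 immediate early genes, known to respond to handling of cells, 10 were lower in number 2 in both lines, and the median log2 difference of the 11 was -2.25 for the wild-type line and -1.57 for the mutant line. The deposited tables of both number 2 libraries are named as merged and those of the number 1 libraries are not. What was merged and what the number stands for are not stated, and the part of these differences in the members' values was not tested.

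**Figure D1:**
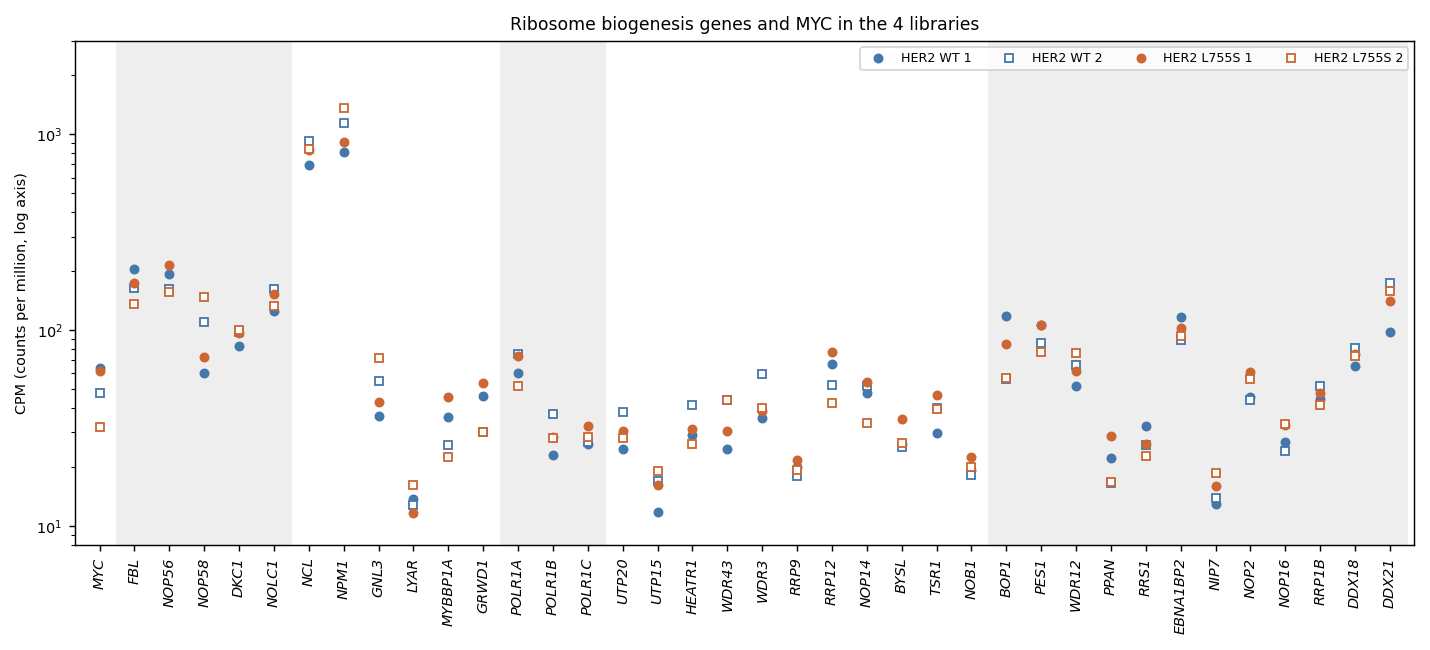
CPM (log axis) of the 38 tested members in each library, with circles for the number 1 libraries, squares for the number 2 libraries, blue for HER2 WT and orange for HER2 L755S. Shaded bands separate the functional groups in the order of the text. For most genes the colours interleave, and NPM1 and NCL stand far above the other members.

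MYC (ENSG00000136997, GRCh38 chromosome 8, 127735434 to 127741434, plus strand) was at 64.2 and 47.8 CPM in the wild-type libraries, against 62.0 and 31.9 in the mutant libraries. The groups overlapped, since HER2 L755S 1 was level with HER2 WT 1 and HER2 L755S 2 was the lowest. The log2 fold change was -0.26 (SE 0.38, 95% interval -1.09 to 0.58, edgeR, Benjamini-Hochberg adjusted p = 0.98). It was -0.05 within number 1 and -0.59 within number 2, and without HER2 L755S 2 it was 0.14. MYC was lower in the number 2 library of each line, by a log2 difference of -0.42 in HER2 WT and -0.96 in HER2 L755S.

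MYC lies on a chromosome with generally lower values in HER2 L755S cells. Of 349 protein-coding genes of chromosome 8 that averaged 5 CPM or more, 78.2% had a negative log2 fold change (median -0.34), against 46.1% of 10843 such genes in the genome. The other members on chromosome 8 are BOP1 and RRS1, which also had negative values. The chromosome's median was -0.39 within number 1 and -0.33 within number 2. In the same order MYC had -0.05 and -0.59, BOP1 -0.48 and 0.01, and RRS1 -0.31 and -0.19. MYC, BOP1 and RRS1 are 3 of the 14 members with a negative log2 fold change, and the part of the chromosome in their values was not tested. Chromosome 1, which holds HEATR1, WDR3 and EBNA1BP2, also had a negative median (-0.18 over 1114 genes), with -0.13 within number 1 and -0.22 within number 2. In the same order HEATR1 had 0.09 and -0.66, WDR3 0.12 and -0.59, and EBNA1BP2 -0.19 and 0.07. Within 2 Mb of MYC, 3 other genes were tested. PVT1, a noncoding RNA gene next to MYC, had a value of -0.11. FAM84B had -0.46 and POU5F1B 0.17. None of these 3 was called (edgeR, adjusted p = 1, 0.81 and 1).

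The snoRNP proteins had small differences of mixed sign. FBL, the methyltransferase of box C/D particles, was at 204.5 and 163 CPM in the wild-type libraries, against 174.5 and 136 in the mutant libraries, and its log2 fold change was -0.25 (SE 0.31). Within each number FBL was lower in HER2 L755S (-0.23 and -0.27), but the number 1 library of HER2 L755S was above the number 2 library of HER2 WT. NOP56 and NOP58 form the core of the same particles with FBL, and their values were not alike. NOP56 was at 194 and 162 CPM in the wild-type libraries, against 213.5 and 157 in the mutant libraries, a log2 fold change of 0.06. NOP58 was at 59.99 and 110.0 CPM in the wild-type libraries, against 72.8 and 147 in the mutant libraries, a log2 fold change of 0.37 (SE 0.41, 95% interval -0.53 to 1.27). Its spread went with the number more than with the line: both number 2 libraries were above both number 1 libraries. DKC1, the pseudouridine synthase of H/ACA particles, and NOLC1, a nucleolar chaperone of snoRNPs, had log2 fold changes of 0.12 and -0.01.

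The nucleolar scaffold and chaperone genes included the most abundant members. Nucleophosmin, encoded by NPM1, was at 815 and 1137 CPM in the wild-type libraries, against 914 and 1366 in the mutant libraries, a log2 fold change of 0.22 (SE 0.32). NCL, which encodes nucleolin, was at 698 and 924 CPM in the wild-type libraries, against 826 and 836 in the mutant libraries, a log2 fold change of 0.03. The groups overlapped for both genes. In TPM, a level per transcript length, NPM1 averaged 1509 over the 4 libraries, NCL 460.4 and FBL 339, the 3 highest members. NPM1 and NCL together made 50.8% to 61.0% of the summed TPM of all 39 members. NPM1 has many processed copies, and 44.4% of the 50-base windows of its longest coding transcript also occur in transcripts of other genes, so its counts depend on how RSEM divided reads. GNL3, a nucleolar GTP-binding protein, was at 36.4 and 55.1 CPM in the wild-type libraries, against 43.0 and 71.5 in the mutant libraries (log2 fold change 0.32). The values of LYAR, MYBBP1A and GRWD1 were 0.06, 0.13 and 0.14, so that all 6 genes of this group had a positive value and none was called.

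The large subunits of RNA polymerase I had opposite signs in the numbers. POLR1A, the largest subunit, was at 60.1 and 75.4 CPM in the wild-type libraries, against 73.2 and 51.5 in the mutant libraries. HER2 L755S 2 was the lowest library and HER2 WT 2 the highest. Its log2 fold change was -0.12 (SE 0.33, 95% interval -0.85 to 0.61), with 0.29 within number 1 and -0.55 within number 2. POLR1B, which forms the catalytic centre with POLR1A, was at 23.0 and 37.4 CPM in the wild-type libraries, against 28.5 and 28.1 in the mutant libraries, with 0.31 within number 1 and -0.41 within number 2 (log2 fold change -0.09). POLR1C, a subunit shared with RNA polymerase III, was at 26.1 and 26.9 CPM in the wild-type libraries, against 32.5 and 28.3 in the mutant libraries. Its groups did not overlap, but the difference was small (log2 fold change 0.20, SE 0.32, edgeR adjusted p = 0.99).

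The 12 members of the small subunit processome and 40S maturation were low to moderate in level, and 11 were tested. All 11 had a positive difference within number 1, from 0.09 to 0.64, and 4 of them within number 2. HEATR1, a large scaffold protein of the processome, was at 29.2 and 41.3 CPM in the wild-type libraries, against 31.2 and 26.2 in the mutant libraries, the lowest value of the group (log2 fold change -0.30, SE 0.34). It was 0.09 within number 1 and -0.66 within number 2. The processome proteins UTP20 and WDR3 showed the same split, with 0.30 and -0.44 for UTP20 and 0.12 and -0.59 for WDR3. WDR3 was at 35.3 and 59.8 CPM in HER2 WT cells, and at 38.5 and 39.8 in HER2 L755S cells, so that HER2 WT 2 stood above the rest (log2 fold change -0.28). NOP14, a factor of the same complex, had 0.17 and -0.62. From all 4 libraries UTP20 had a log2 fold change of -0.10 and NOP14 one of -0.18. Per transcript length UTP20 and HEATR1 were the lowest tested members, with means of 4.24 and 4.88 TPM. The GTPase-like factor TSR1, which acts late in 40S maturation, was at 29.8 and 39.8 CPM in the wild-type libraries, against 46.5 and 39.6 in the mutant libraries, with the largest number 1 difference of all members (0.64) and -0.01 within number 2. UTP15 had a log2 fold change of 0.30 from all 4 libraries, BYSL 0.26, NOB1 (the endonuclease that makes the final cut of 18S ribosomal RNA) 0.18, WDR43 0.11, RRP9 0.11 and RRP12 0.00.

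PWP2, a core subunit of the processome, was too low to be tested as listed. It had 9.39 and 15.7 expected counts in the wild-type libraries, against 2.59 and 8.07 in the mutant ones. The tables also list CH507-9B2.5 (ENSG00000275464), and in GENCODE 29 its transcripts hold 89.8% of the 50-base windows of the longest coding PWP2 transcript. That entry held 1158 and 892 counts in the wild-type libraries, against 1222 and 797 in the mutant ones. Between 0.211% and 1.73% of the counts of the 2 entries were listed under PWP2. Added together they came to 36.1 and 31.3 CPM in the wild-type libraries, against 41.9 and 31.35 in the mutant ones, within the range of the other processome genes. The log2 fold change of CH507-9B2.5 in the fit was 0.13, and it was not called (adjusted p = 1). The level under the symbol PWP2 alone is thus no measure of the gene, and this sum was made after the values were seen.

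The 60S maturation and modification group held both ends of the range. NOP2, the cytosine methyltransferase of 28S ribosomal RNA (chromosome 12, 6556863 to 6568691), was at 45.5 and 43.9 CPM in the wild-type libraries, against 61.2 and 55.9 in the mutant libraries. Both HER2 L755S libraries were above both HER2 WT libraries, and the spread within a line was small. The log2 fold change was 0.39 (SE 0.31, 95% interval -0.30 to 1.08), with 0.43 within number 1 and 0.35 within number 2. Its edgeR adjusted p was 0.88, the lowest of the members. In GENCODE 29 an overlapping entry, AC006064.6, shares 83.3% of the 50-base windows of NOP2, and no row of that name was used here. NOP16 was at 26.9 and 24.1 CPM in the wild-type libraries, against 32.7 and 33.3 in the mutant libraries (log2 fold change 0.37). NIP7 was at 12.97 and 13.9 CPM in the wild-type libraries, against 15.9 and 18.5 in the mutant libraries (log2 fold change 0.36).

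BOP1, PES1 and WDR12 encode the PeBoW complex, which is needed to process the 60S precursor, and their values were not parallel. BOP1 (chromosome 8) was at 118 and 56.3 CPM in the wild-type libraries, against 84.4 and 56.5 in the mutant libraries, a log2 fold change of -0.31 (SE 0.40). The value rests on HER2 WT 1, without which it was 0.32. PES1 had a log2 fold change of -0.06 and WDR12 of 0.23. Of the other factors, RRS1 (chromosome 8) was at 32.4 and 25.9 CPM in HER2 WT cells, and at 26.1 and 22.6 in HER2 L755S cells, a log2 fold change of -0.26. EBNA1BP2 had -0.07, RRP1B -0.11, DDX18 0.03 and PPAN 0.24. The helicase gene DDX21 was at 97.7 and 173 CPM in the wild-type libraries, against 140.3 and 158 in the mutant libraries, with 0.52 within number 1 and -0.13 within number 2 (log2 fold change 0.14). PPAN shares 87.0% of its windows with the read-through entry PPAN-P2RY11, which held 111 and 16 counts in the wild-type libraries, against 101 and 15 in the mutant ones.

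**Figure D2:**
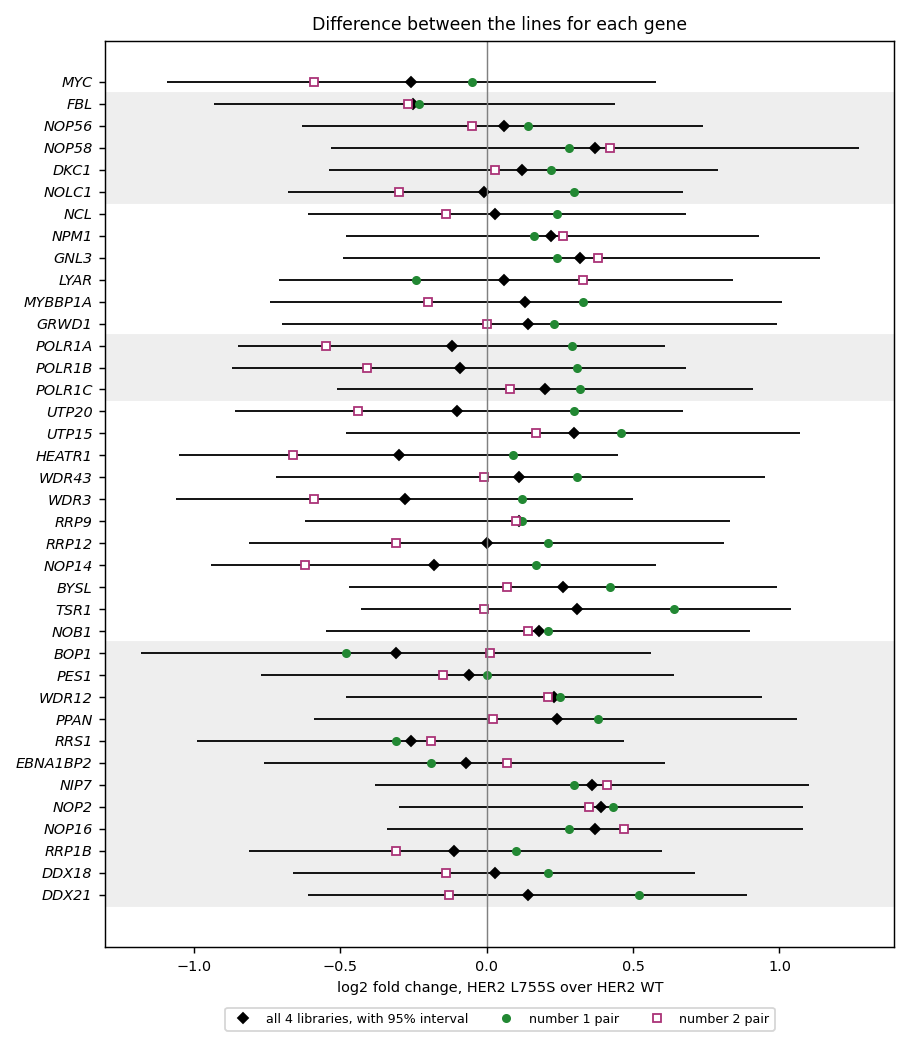
Log2 fold change of HER2 L755S over HER2 WT for each tested member: black diamonds with 95% intervals are the edgeR estimates from all 4 libraries, green circles the log2 CPM difference within number 1 and purple squares that within number 2. All 38 intervals hold 0, and for 16 genes the circle lies right of 0 and the square left of it.

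The intervals say how large a difference could have been missed. All 38 intervals held 0. Of these, 25 lay within a 2-fold change in either direction and all 38 within 2.5-fold, the lowest bound being 0.442-fold and the highest 2.41-fold. In simulated counts for this comparison and 16538 genes, the test recovered 12% of genes changed 2-fold and 78% of those changed 4-fold. A simulated difference of 2-fold was thus mostly not detectable in this fit, which leaves the replicate number out of the model. The changed genes were drawn from all tested genes, at low and high counts, and not from the members. With the replicate number added to the model as a block, 10.5% of all tested genes were called, and no member. Of the 38 genes, 6 were higher without overlap between the lines (POLR1C, BYSL, NOB1, NIP7, NOP2 and NOP16), against 16.9% of all tested genes. None was lower without overlap, against 19.3% of all tested genes. Of the 38, 24 had a positive and 14 a negative log2 fold change, a split that became 19 and 19 without scaling. The median log2 fold change of the members was 0.09, with an interquartile range of -0.10 to 0.23. Over all tested genes the median was 0.00 and the range -0.31 to 0.27. Those genes include ones at low counts, while a tested member had at least 339 counts in every library. The 136 further ribosome biogenesis genes described below had nearly the same range as the members (-0.09 to 0.22). The part of expression level in this spread was not tested.

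The 2 numbers gave different pictures of the same genes. Within number 1, 31 of 38 members were higher in HER2 L755S (median 0.23), against 51.1% of all tested genes (median 0.01). Within number 2, 18 of 38 were higher (median -0.01), against 50.2% of all tested genes (median 0.00). A positive difference in number 1 and a negative one in number 2 was found for 16 members (42.1%), against 17.6% of all tested genes. The share was 19.85% for the 136 further ribosome biogenesis genes described below, and 47.6% for 21 RNA polymerase III genes. The split was thus not particular to the members. With 1 library per line in each number, these differences have no test.

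Transcript length went with this split. The 13 longest members (3162 to 12677 bases, mean length as listed in the tables) were all higher in HER2 L755S within number 1 (median 0.29), and 1 of them, UTP15, was higher within number 2 (median -0.31). The 13 shortest (846 to 1794 bases) had medians of 0.16 and 0.10, with 9 and 10 of 13 higher. Other genes showed the split by length too, mainly within number 2. Among 10843 protein-coding genes averaging 5 CPM or more, the 3615 longest had a median of 0.09 within number 1 and -0.19 within number 2. Of these, 2182 were higher in HER2 L755S within number 1 and 1154 within number 2. The 3614 shortest had medians of 0.01 and 0.24, with 1874 and 2638 higher. Length was looked at after the values were seen. Across the 38 members, Spearman's rho of length with the number 2 difference was -0.64, and with the number 1 difference 0.27. Over the 10843 genes it was -0.40 and 0.08. These correlations are across genes that share the same libraries, so they are descriptions without a p. RNA integrity values are not given in the sources used here, and the part of length in the members' values was not tested.

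**Figure D3:**
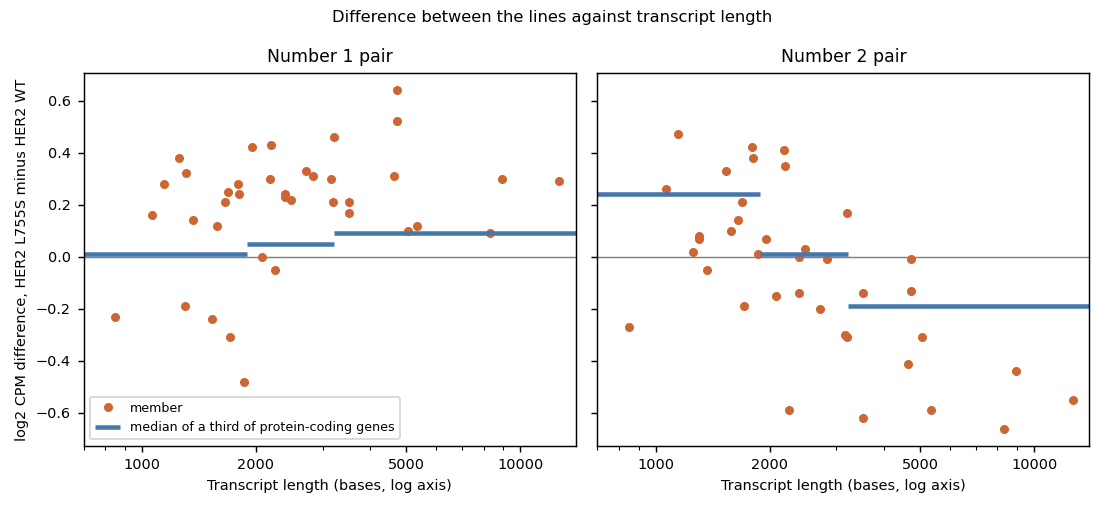
Difference of log2 CPM between HER2 L755S and HER2 WT (vertical axis) against mean transcript length (horizontal log axis) within number 1 (left) and number 2 (right). Orange points are the 38 tested members, and blue lines are medians of the short, middle and long genes among 10843 protein-coding genes. On the right the long members lie below 0 except UTP15, while on the left all 13 of them lie above 0.

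Several members differed more between the numbers than between the lines. In HER2 WT the median size of the log2 difference between the numbers was 0.37 over the members, and in HER2 L755S 0.25. Between the lines the median size was 0.24 within number 1 and 0.20 within number 2. For the log2 fold change, which averages the libraries of a line, it was 0.18. Over all tested genes it was 0.43 and 0.44 between the numbers. Between the lines it was 0.29 and 0.39 for these genes within number 1 and number 2. Both number 2 libraries were higher than the number 1 library of their line for 11 members and lower for 15. Among the higher were NOP58 (0.87 in HER2 WT and 1.01 in HER2 L755S), GNL3 (0.60 and 0.73), WDR43 (0.84 and 0.52) and NPM1 (0.48 and 0.58). Among the lower were BOP1 (-1.07 and -0.58), GRWD1 (-0.61 and -0.83), MYBBP1A (-0.48 and -1.01) and MYC (-0.42 and -0.96). Spearman's rho between the differences in the 2 lines was 0.70 over the 38 members and 0.71 over the 10843 genes above. Members of 1 complex could go opposite ways between the numbers, as NOP58 and NOP56 did (-0.26 and -0.45 for NOP56).

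**Figure D4:**
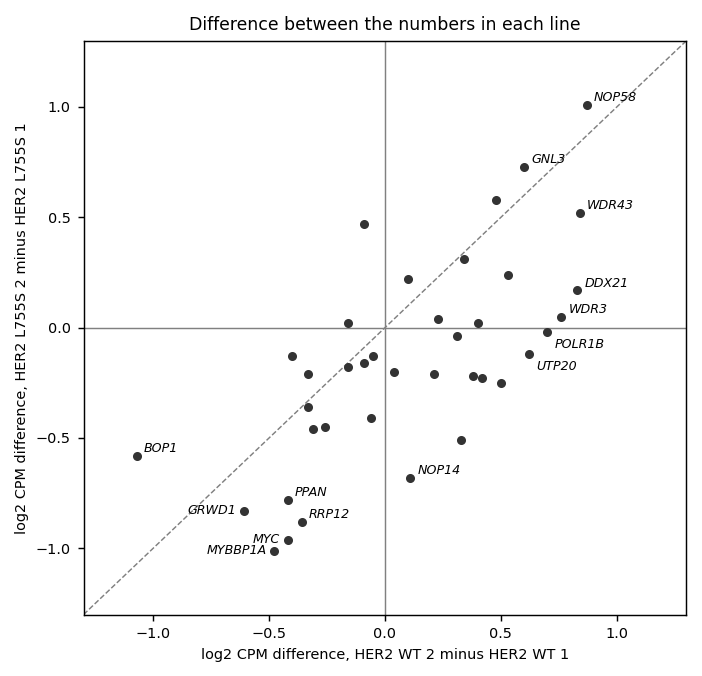
Log2 CPM difference of the number 2 over the number 1 library in HER2 WT (horizontal axis) and in HER2 L755S (vertical axis) for the 38 tested members, with genes of at least 0.6 in either line named and a dashed line of equal values. NOP58, GNL3 and WDR43 lie at the upper right and BOP1, GRWD1, MYBBP1A and MYC at the lower left.

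Of 138 further ribosome biogenesis genes (RNA polymerase I machinery, processome and 40S factors, 60S factors, snoRNP assembly factors and the RNA exosome), 136 were tested, and none was called in either direction (3 had an unadjusted p under 0.05). Their median log2 fold change was 0.09, as for the members, with 0.08 within number 1 and 0.09 within number 2. The highest value was that of MPHOSPH6, an exosome cofactor (1.08, SE 0.32, edgeR adjusted p = 0.15). The lowest was that of NAT10, the RNA acetyltransferase of 18S ribosomal RNA (-0.74, SE 0.32, edgeR adjusted p = 0.43). MPHOSPH6 was at 29.7 and 36.7 CPM in the wild-type libraries, against 65.8 and 74.8 in the mutant libraries, with no overlap. With the replicate number as a block, 4 of the 136 passed the threshold: MPHOSPH6, EXOSC3 and BRIX1 were higher and NAT10 lower (edgeR, adjusted p = 0.00088, 0.015, 0.027 and 0.017). That fit called 10.5% of all tested genes (4.38% higher and 6.16% lower). Of 21 RNA polymerase III genes none was called without the block, and 2 were lower with it. BRF2, a subunit of an RNA polymerase III initiation factor, had a value of -0.99 (edgeR adjusted p = 0.16, or 0.0024 with the block). MAF1, the repressor of RNA polymerase III, had -0.75 (edgeR adjusted p = 0.43, or 0.013 with the block). Both genes lie on chromosome 8, whose lower values were given above, and the part of the chromosome in theirs was not tested.

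None of the 12 genes that encode MAX, its partners and the other MYC family members was called (median 0.06), and MYCN, the largest of them in difference, was at 4.45 and 5.54 CPM in the wild-type libraries, against 7.35 and 8.92 in the mutant libraries (log2 fold change 0.70, adjusted p = 0.65). None of 9 genes of MYC turnover was called. A negative log2 fold change was found for 8 of the 9 (median -0.26), against 8213 of 16538 tested genes. Within both numbers 5 of the 9 were negative, against 5301 of the 16538 genes. USP28 had -0.44, with -0.06 within number 1 and -0.75 within number 2. HUWE1 had -0.35, with 0.07 and -0.69. For both genes HER2 WT 2 was the highest library. PIM1, a kinase that stabilizes MYC, had a value of -1.14 (SE 0.42, edgeR adjusted p = 0.29, or 0.032 with the block). None of 5 genes that MYC is known to repress was called, and 3 of the 5 had a positive log2 fold change (median 0.22). CDKN2B had 0.39 and GADD45A 0.28. NDRG1, also on chromosome 8, had -2.0 (edgeR adjusted p = 0.093, or 0.0019 with the block). Over all tested genes 1.69% were called. With the block 1 of the 9 turnover genes and 1 of the 5 repressed genes were lower, against 6.16% of all tested genes.

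Of 30 MYC targets outside ribosome biogenesis, 1 was called, against 1.69% of all tested genes, and 3 were called higher with the block, against 4.38%. A positive log2 fold change was found for 20 of the 30 (median 0.18) and for 8325 of all 16538 tested genes (median 0.00). The called gene was TMEM97, the sigma-2 receptor, which is also known for its part in cholesterol transport. It was at 189 and 261 CPM in the wild-type libraries, against 567 and 795 in the mutant libraries, so that both HER2 L755S libraries were above both HER2 WT libraries. The log2 fold change was 1.60 (SE 0.33, edgeR, Benjamini-Hochberg adjusted p = 0.036), with 1.58 within number 1 and 1.60 within number 2. Without HER2 WT 1 the call was lost (adjusted p = 0.12, in a range from 5e-05 to 0.12 over the alternatives). NME1, a nucleoside diphosphate kinase, had a value of 0.74 (edgeR adjusted p = 0.38, or 0.02 with the block).

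The proliferation genes did not run with the ribosome biogenesis genes within number 1. There the 13 proliferation genes had a median difference of -0.97 while the members had 0.23, and within number 2 the medians were -0.24 and -0.01. MKI67, a marker of cycling cells, was at 164 and 183 CPM in the wild-type libraries, against 83.8 and 130.2 in the mutant libraries (log2 fold change -0.70, adjusted p = 0.49, and 0.022 with the block). None of the 13 was called in the fit without the block, 5 were lower with it, against 6.16% of all tested genes, and whether these gene groups differed from each other was not tested.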

How the data were processed

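RNA sequencing of 4 libraries was analysed (poly(A)-selected, from 250 ng of total RNA, per the labels' protocols). Per the file headers, the authors' tables are RSEM output with an expected count per gene, an estimate that was not whole for 9.53% to 11.5% of genes, and TPM, which the authors computed per transcript length. STAR, edgeR and GRCh38 are named in the submitters' processing notes. Versions, annotation and strand setting are not given in the sources used here. Reads of overlapping genes may therefore be mixed.

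The expected counts were rounded to whole numbers, filtered with filterByExpr (16538 of 60675 genes) and scaled by TMM (factors 0.937 to 1.04). The lines were compared with edgeR 4.0.16 (glmQLFit, glmQLFTest, two-sided, R 4.3.3), leaving the replicate number out of the model, and Benjamini-Hochberg adjustment over all tested genes at 0.05. SEs are the log2 fold change divided by the root of the F statistic. Differences within a number are of log2 CPM (prior count 0.5). TPM was used for levels only. Gene positions are from GENCODE 29.

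The members and gene lists were chosen with earlier results of these data known. The rule for named genes took MYC, the RNA polymerase I subunits, the 5 members with the highest and the 5 with the lowest log2 fold change, the 3 highest and 3 lowest in TPM, the other members with their log2 fold change, and up to 3 genes of each other list by adjusted p. Length, shared sequence and the PWP2 sum were looked at after the values were seen. No row was matched for BUD23 and EFL1. On simulated counts for 16538 genes, 8 of 150 calls were false. Alternatives were DESeq2 1.42.0, limma-voom (limma 3.58.1), other scalings and filters, a replicate block, leaving out each library, and leaving out mitochondrial genes or those of chromosomes 8 and 11.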

Additional observations from a re-analysis of the deposited data

How the results depend on the processing

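No member was called under any of 13 alternatives, and the lowest adjusted p of a member was 0.22 (NOP2, replicate block). The median log2 fold change of the members ranged from -0.05 (without HER2 L755S 1) to 0.18 (without HER2 WT 2). With no scaling it was 0.01, where the median of all genes was -0.07 and 19 of 38 members were negative. Counts of called genes moved by over 1.5 times in some fits: without a filter 328 were higher and 431 lower, with DESeq2 276 and 309, and with the replicate number as a block 725 and 1018. Leaving out 1 library gave 160 to 220 higher and 184 to 328 lower genes. There, 1 line is left with 1 library, which is assumed to vary like the other line. The cause of these moves was not tested. The labels do not say that a number pairs libraries. The difference between the numbers correlated between the lines at 0.425 across all tested genes. Across the 11473 genes averaging 5 CPM or more, which include every tested member, it was 0.649. The block called no member.

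Of the 38 members, 14 kept their sign throughout. Values near 0 changed sign with scaling or tool. NOLC1 was 0.01 with size factors of DESeq2, without mitochondrial genes, with DESeq2 and with limma-voom, and 0.00 with the replicate block. RRP12 was -0.05 with no scaling, limma-voom and the block, and -0.02 with the filter of 50 counts and without chromosomes 8 and 11. With no scaling NOP56 was -0.01, NCL -0.03, LYAR -0.02 and DDX18 -0.04. Leaving out 1 library turned the sign of 24 members, over these ranges: MYC -0.81 to 0.14, NOP56 -0.18 to 0.26, NOP58 -0.23 to 0.90, NOLC1 -0.19 to 0.21, NCL -0.16 to 0.27, NPM1 -0.10 to 0.50, GNL3 -0.09 to 0.67, LYAR -0.20 to 0.28, MYBBP1A -0.46 to 0.55, GRWD1 -0.33 to 0.49, POLR1A -0.40 to 0.11, POLR1B -0.40 to 0.31, UTP20 -0.38 to 0.26, WDR43 -0.25 to 0.61, WDR3 -0.62 to 0.16, RRP12 -0.50 to 0.37, NOP14 -0.56 to 0.12, BOP1 -0.73 to 0.32, PES1 -0.31 to 0.14, PPAN -0.21 to 0.57, EBNA1BP2 -0.24 to 0.14, RRP1B -0.21 to 0.02, DDX18 -0.12 to 0.20 and DDX21 -0.22 to 0.63. PWP2 could be fitted without a filter (-1.0, adjusted p = 0.92) and in 3 of the fits with 3 libraries.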
